A study of Rattus norvegicus with 6 samples.

Results

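The pancreatic chymotrypsins and elastases of the rat were followed through 6 genes, chosen by gene symbol: Ctrb1, Ctrc and Ctrl among the chymotrypsins, and Cela1, Cela2a and Cela3b among the elastases. They are 6 of the 34001 genes in the table. Values came from the pancreas of 6 Sprague-Dawley rats, 2 per group. In the TP+hucMSC-Exs group (traumatic pancreatitis with exosomes) the gland was crushed by an impactor set to 3 cm2 and 10 kg, and membrane vesicles from human umbilical cord mesenchymal stem cells were given into the tail vein at 10 μg per 100 g of body weight. The TP group had the same crush injury and 1 ml of saline. Control rats had a laparotomy in which the gland was turned over with swabs, and also received 1 ml of saline. The pancreas was taken 24 h after injury, and the labels give neither age nor sex. Levels are TPM, in which transcript numbers are divided by gene length and every library adds up to 1000000, so that genes can be compared with each other but no sequencing depth is kept and depth was unknown.

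Chymotrypsins and elastases are serine proteases that acinar cells make as inactive precursors, store in zymogen granules and release towards the gut, where trypsin activates them. Chymotrypsins cut proteins after large aromatic or aliphatic residues, and some elastases after small ones. Ctrb1 encodes chymotrypsinogen B, the main chymotrypsin precursor, which in the mouse is known to degrade trypsinogen. Ctrc encodes chymotrypsin C, known in humans to control how much trypsinogen is activated or destroyed, and Ctrl a further chymotrypsin-like protease. Cela1, Cela2a and Cela3b encode the precursors of pancreatic elastases; the human counterpart of Cela1 is silent in the pancreas, unlike the rat gene.

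The stretches before the start of 3 of these genes are shown because Ctrb1 and Cela1 moved furthest apart in the exosome-treated libraries, and Cela3b departed from the other elastases. They are the 250 bases upstream of the annotated start, from RefSeq on build GRCr8, written from 5′ to 3′ on the strand of the gene. Capitals mark CACCTG (an E-box), and, where it follows after 4 bases, TTTCCC.
Ctrb1, chr19:56566979-56567228, - strand: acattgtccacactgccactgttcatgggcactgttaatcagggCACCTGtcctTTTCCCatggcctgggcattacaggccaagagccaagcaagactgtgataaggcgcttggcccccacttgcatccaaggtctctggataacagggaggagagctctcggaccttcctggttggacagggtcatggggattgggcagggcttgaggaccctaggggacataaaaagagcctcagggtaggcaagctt
Cela1, chr7:133665062-133665311, - strand: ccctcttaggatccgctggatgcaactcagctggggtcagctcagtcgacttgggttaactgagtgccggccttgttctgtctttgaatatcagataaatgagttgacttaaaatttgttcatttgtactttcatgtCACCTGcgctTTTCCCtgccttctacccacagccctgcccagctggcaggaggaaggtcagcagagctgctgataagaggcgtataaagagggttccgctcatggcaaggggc
Cela3b, chr5:154920334-154920583, - strand: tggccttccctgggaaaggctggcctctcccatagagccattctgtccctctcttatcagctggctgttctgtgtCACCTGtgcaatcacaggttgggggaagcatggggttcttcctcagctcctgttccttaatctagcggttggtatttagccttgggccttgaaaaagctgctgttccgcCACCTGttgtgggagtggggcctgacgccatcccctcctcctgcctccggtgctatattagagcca

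The spaced pair CACCTGNNNNTTTCCC resembles the spaced sites that PTF1, a transcription factor complex of acinar cells, is known to bind. It occurred in the Ctrb1 stretch from 206 bases and in the Cela1 stretch from 113 bases before the start, both in the direction of the gene. Searched on both strands, it occurred in 8 of 33469 promoters of the same length, a share of 0.0239%. The other 6 were Prss2, Arpc2, Arrdc5, Fbxl2, Drc12 and LOC102554637. Prss2, a trypsinogen gene, stood at 7715 and 7076 TPM in TP+hucMSC-Exs rats, 10162 and 2984 TPM in TP rats and 13067 and 12152 TPM in control rats. Arpc2, a subunit of the actin-nucleating Arp2/3 complex, stood at 59.0 and 80.8 TPM in TP+hucMSC-Exs rats, 19.2 and 362 TPM in TP rats and 13.3 and 25.6 TPM in control rats. Arrdc5 and Fbxl2 stood at no more than 0.25 TPM in any library, and Drc12 and LOC102554637 were not matched in the table, so that the pair also stood before genes with other patterns. The spacing was chosen with these stretches in view, and a match is a description of letters. The E-box alone, searched on both strands, was present in 4 of the 5 promoters found, those of Ctrb1, Ctrl, Cela1 and Cela3b, and in 15.9% of all promoters. TTTCCC, which the pair contains, was present on either strand in Ctrb1, Cela1 and Cela3b and in 22.0% of all promoters. Cela2a was not matched in the promoter table. In the RefSeq gene order Cela2a and Ctrc are direct neighbours among coding genes, while the other 4 members have neighbours from other families.

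All 6 members were present at high level in every library. Ctrb1 was the most abundant gene of all in both TP+hucMSC-Exs libraries and in TP replicate 1, and the second most abundant, at rank 2, in TP replicate 2 and both controls. It averaged 174652 ± 5540 TPM in the TP+hucMSC-Exs group, 109771 ± 94038 TPM in the TP group and 164205 ± 11203 TPM in the control group (SD, n = 2 each). Cela2a and Cela3b came next, at ranks 5 to 9 in all 6 libraries. Cela1 stood at ranks 11 to 20, Ctrc at ranks 18 to 34 and Ctrl at ranks 21 to 51. Neighbours in this order changed places between groups: Cela3b lay above Cela2a in both TP+hucMSC-Exs libraries and in TP replicate 1, and below it in TP replicate 2 and both controls. Cela1 and Ctrc could not be ordered in the TP+hucMSC-Exs group, where Cela1 was the higher in replicate 1 and Ctrc in replicate 2.

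The chymotrypsins did not share 1 pattern. Ctrb1 (ENSRNOG00000019068) stood at 178569 and 170734 TPM in TP+hucMSC-Exs rats, at 176265 and 43276 TPM in TP rats, and at 172127 and 156284 TPM in control rats. The treated and control values of Ctrb1 overlapped, and TP replicate 2 lay far below all other libraries. Ctrc (ENSRNOG00000013745) stood at 10497 and 9391 TPM in TP+hucMSC-Exs rats, against 15174 and 4062 TPM in TP rats and 14574 and 14851 TPM in control rats. Ctrl (ENSRNOG00000019353) stood at 6945 and 5760 TPM in TP+hucMSC-Exs rats, against 10159 and 2782 TPM in TP rats and 10070 and 9002 TPM in control rats. For both of these minor chymotrypsins the treated libraries lay below both controls and between the TP libraries.

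Among the elastases, Cela1 was furthest from control in the treated rats. Cela1 (ENSRNOG00000004725) stood at 11235 and 9017 TPM in TP+hucMSC-Exs rats, at 20297 and 6197 TPM in TP rats, and at 22315 and 21967 TPM in control rats. The treated libraries thus held 50.7% and 40.7% of the control mean. Cela2a (ENSRNOG00000013628) stood at 25972 and 22413 TPM in TP+hucMSC-Exs rats, against 36547 and 9937 TPM in TP rats and 41933 and 38649 TPM in control rats. Its treated values were 64.5% and 55.6% of the control mean, without overlap. Cela3b (ENSRNOG00000021619) stood at 27147 and 27362 TPM in TP+hucMSC-Exs rats, against 36932 and 9376 TPM in TP rats and 32391 and 29711 TPM in control rats. At 87.4% and 88.1% of the control mean, Cela3b was the elastase whose treated values lay nearest to control.

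**Figure D1:**
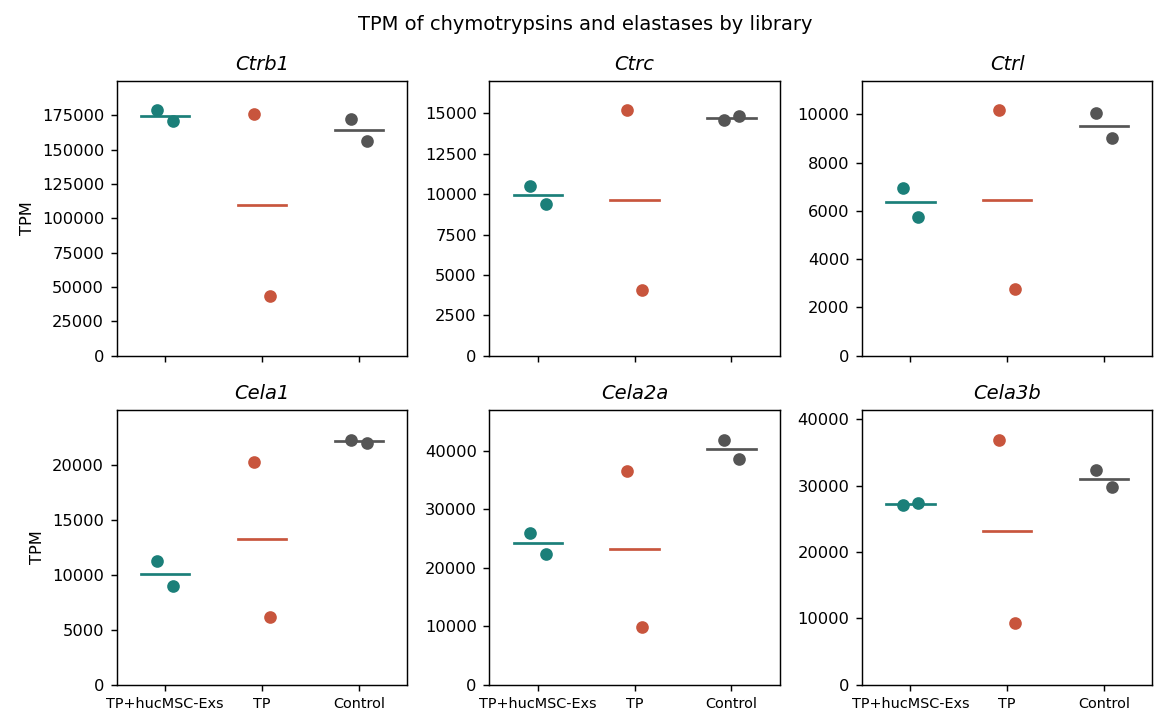
TPM of each of the 6 genes (y axis, from 0) in the 3 groups (x axis); each point is 1 library (1 rat) and the short line is the group mean of 2. Ctrb1 overlapped its control level in treated rats while Cela1 lay at 50.7% and 40.7% of the control mean, and TP replicate 2 was low for all 6 genes.

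TP replicate 2 set the spread of the TP group. In this library the 6 members lay between 24.7% (Cela2a) and 30.2% (Cela3b) of their control means, and together took 7.56% of all TPM. In TP replicate 1 they lay between 90.7% (Cela2a) and 119% (Cela3b) of control and together took 29.5%. The 6 genes took 26.0% and 24.5% of TPM in TP+hucMSC-Exs rats and 29.3% and 27.0% in control rats. In a bulk sample fewer acinar cells and less RNA per acinar cell cannot be told apart. TP replicate 2 held the highest level of all 8 adipocyte markers, all 8 macrophage markers, all 8 neutrophil markers and all 7 fibroblast markers measured. The adipocyte list summed to 40.7 and 54.0 TPM in TP+hucMSC-Exs rats, 25.6 and 6363 TPM in TP rats and 25.0 and 50.5 TPM in control rats. Plin1 and Lep were at 0 in both TP+hucMSC-Exs libraries. Lep was also at 0 in TP replicate 1 and control replicate 2. Plin1 stood at only 0.04 TPM in TP replicate 1 and 0.23 and 0.53 TPM in control rats. Fabp4 stood at 25.9 and 33.7 TPM in treated rats, and 13.9 and 29.1 TPM in control rats. The macrophage list summed to 409 and 761 TPM in TP+hucMSC-Exs rats, 55.4 and 4674 TPM in TP rats and 18.3 and 143 TPM in control rats. The fibroblast list summed to 246 and 280 TPM in TP+hucMSC-Exs rats, 105 and 5867 TPM in TP rats and 40.0 and 97.9 TPM in control rats. In TP replicate 2 the highest markers of these lists were Lyz2 at 3707 TPM, Fabp4 at 2399 TPM, Col3a1 at 2233 TPM and S100a8 at 239 TPM; those of lymphocytes and endothelium were Cd8a at 53.2 TPM and Eng at 122 TPM. The islet hormone gene Ins2 stood at 1435 and 639 TPM in TP+hucMSC-Exs rats, 504 and 149 TPM in TP rats and 1078 and 167 TPM in control rats. The part of these other cells in the members' levels was not tested. Markers of acinar cells were present throughout, but did not share 1 direction. The transcription factor gene Ptf1a stood at 32.6 and 34.5 TPM in TP+hucMSC-Exs rats, 23.1 and 9.51 TPM in TP rats and 13.4 and 16.3 TPM in control rats. Rbpjl was also higher in both treated than in both control rats, as were 86.9% of all genes, and Bhlha15 overlapped. The enzyme genes Prss1, Cpa1, Cpb1, Pnlip and Cel were lower there, as were 1.63% of all genes. Pnlip stood at 10359 and 7186 TPM in treated rats and 21253 and 22320 TPM in control rats.

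The comparison of exosome-treated with untreated injured pancreas asked whether the treatment changed the level of these genes. With limma on log2(TPM + 0.5), fitted over the 11477 genes that averaged 1 TPM or more, which included all 6 members, and with Benjamini-Hochberg adjustment, 0 of 6 members passed an adjusted p of 0.05, where 0.0523% of all genes were called higher and 0.0174% lower. Ctrb1 was the 1 member with an unadjusted p below 0.05, as had 1.32% of all genes, with a log2 fold change of 1.00 ± 0.42 (± SE, limma adjusted p = 1). The 6 log2 fold changes ran from -0.16 (Cela1) to 1.00 (Ctrb1), with a median of 0.34, against a median of -0.38 over all genes. For all 6 members the treated and TP libraries overlapped, where 5.09% of all genes were higher and 1.62% lower without overlap. Without TP replicate 1 all 6 members were called, all higher, and without TP replicate 2 the 4 members Ctrc, Ctrl, Cela1 and Cela2a were called, all lower. In each of these fits 1 TP library was left, assumed to vary like the other groups, so that the calls measure the distance of that library and not a spread among TP rats. The sign of 6 of 6 log2 fold changes was positive without replicate 1 and negative without replicate 2.

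Against control, treated pancreas had lower levels of 5 members without overlap of the libraries, all but Ctrb1, where 1.63% of all genes were lower and 86.9% higher without overlap. Cela1 had a log2 fold change of -1.14 ± 0.63 (± SE, limma adjusted p = 0.800) and Cela2a of -0.74 ± 0.56 (adjusted p = 0.800). Ctrb1 lay at 0.09 ± 0.42. Median-of-ratios scaling gave -2.59 for Cela1, -2.19 for Cela2a and -1.36 for Ctrb1, and quantile normalization gave -0.63, -0.38 and 0.25 for the same genes. With limma 0 of 6 members passed, and 0 had an unadjusted p below 0.05, against 2.95% of all genes, where 0.209% of all genes were called higher and 0% lower. The median of the 6 was -0.58, against 1.09 over all genes. Leaving out either TP library, which takes the difference between the TP libraries out of the shared variance, 4 members were called lower: Ctrc, Ctrl, Cela1 and Cela2a. With only the 4 libraries compared, Cela1 (adjusted p = 0.0199) and Cela2a (adjusted p = 0.0450) were called.

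Between the TP and control groups the log2 fold changes of the members on the TPM scale ran from -1.08 (Cela2a) to -0.74 (Cela3b) with SE between 0.42 and 0.71, against a median of 1.495 over all genes. Other scalings moved them: median-of-ratios scaling gave -2.81 (Cela2a) to -2.47 (Cela3b), and quantile normalization gave -1.57 for Ctrl and -1.20 for Ctrc but values from -0.057 (Cela1) to 0.12 (Ctrb1) for the other 4. With limma 0 of 6 passed and 1, Ctrb1, had an unadjusted p below 0.05, against 4.06% of all genes (log2 fold change -0.91 ± 0.42, adjusted p = 0.555); 0.0523% of all genes were called higher and 0% lower. Cela1 and Cela2a were lower without overlap, 2 of 6 members, against 1.09% of all genes, and 0 were higher, against 23.1%. Without TP replicate 1 all 6 were called lower, and without TP replicate 2 none was called, with log2 fold changes of 0.10 for Ctrb1 and 0.25 for Cela3b. Here too the 1 TP library left was assumed to vary like the other groups.

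The make-up of the family set the treated libraries apart from the other 4. Ctrb1 took 68.6% and 69.8% of the summed TPM of the 6 genes in TP+hucMSC-Exs rats, against 59.7% and 57.2% in TP rats and 58.7% and 57.8% in control rats. TP replicate 2, whose total was lowest, lay just below both controls in this share, and both treated libraries lay above the other 4. Cela1 took 4.31% and 3.69% in treated rats, against 6.87% and 8.19% in TP rats and 7.61% and 8.12% in control rats. Cela2a took 9.98% and 9.16% in treated rats, against 12.4% and 13.1% in TP rats and 14.3% in each control. The shares of Ctrc were 4.03% and 3.84% in treated rats, against 5.14% and 5.37% in TP rats and 4.97% and 5.49% in control rats. The shares of Ctrl were 2.67% and 2.35% in treated rats, against 3.44% and 3.68% in TP rats and 3.43% and 3.33% in control rats. All 4 of these genes had a smaller share in both treated libraries than in any other. Cela3b was the exception, with 10.4% and 11.2% in treated rats, 12.5% and 12.4% in TP rats and 11.0% in each control. Shares of 1 total move against each other, so that a larger share of Ctrb1 lowers the others.

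**Figure D2:**
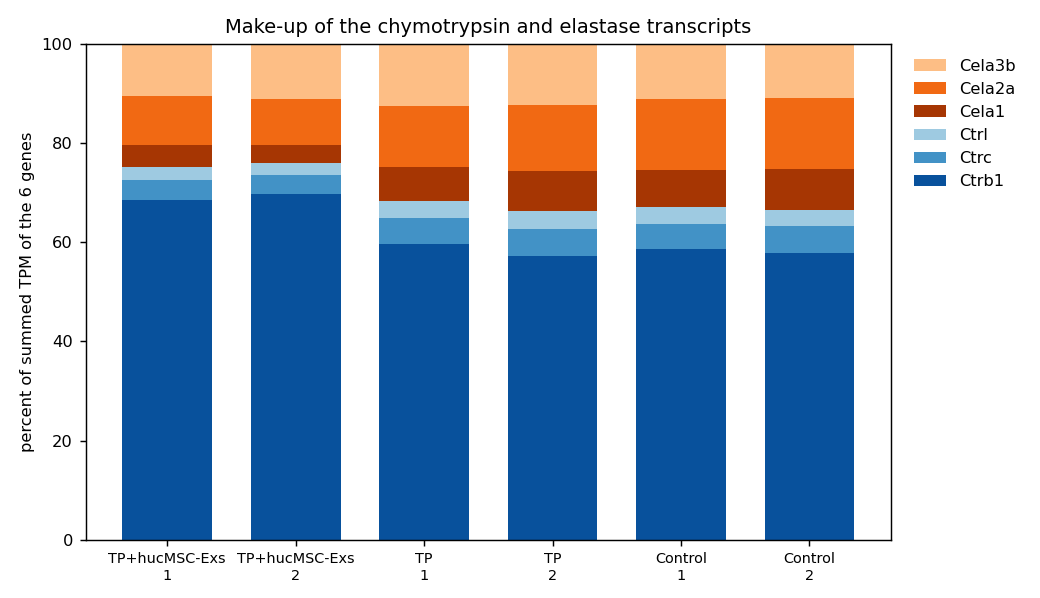
Percent of the summed TPM of the 6 genes (y axis) taken by each gene in each of the 6 libraries (x axis), chymotrypsins in blue at the bottom and elastases in orange on top. Ctrb1 took 68.6% and 69.8% in treated rats, and between 57.2% and 59.7% in the other 4.

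The ratio of summed elastase to summed chymotrypsin TPM was 0.328 and 0.316 in TP+hucMSC-Exs rats, against 0.465 and 0.509 in TP rats and 0.491 and 0.501 in control rats. The treated libraries lay below all others, and the TP libraries enclosed the controls. On the log2 scale the TP+hucMSC-Exs group differed from the TP group by -0.59, beside a pooled SD of 0.070, and from the control group by -0.62, beside a pooled SD of 0.031. The TP and control groups differed by -0.03, less than their pooled SD of 0.067. With 2 libraries against 2, the two-sided exact permutation test cannot go below p = 0.33, the value it gave for both treated comparisons; it gave p = 1 for TP against control. Ctrb1 made up 91.1% and 91.8% of chymotrypsin TPM in treated rats, 87.4% and 86.3% in TP rats and 87.5% and 86.8% in control rats, so that this ratio weighs mostly Ctrb1. With each member weighted equally, as a mean of log2 TPM, the differences were -0.28 from the TP group and -0.33 from the control group. Without TP replicate 2 the difference of the treated from the TP group was -0.53, and without TP replicate 1 it was -0.66.

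Ratios between single members differed in the same libraries. The ratio of Ctrb1 to Cela1 was 15.9 and 18.9 in treated rats, against 8.68 and 6.98 in TP rats and 7.71 and 7.11 in control rats, a mean ratio 2.22 times that of the TP group and 2.35 times that of the control group. The ratio of Ctrb1 to Ctrc was 17.0 and 18.2 in treated rats, against 11.6 and 10.7 in TP rats and 11.8 and 10.5 in control rats. Of the 15 pairs among the 6 genes, 12 had treated ratios outside the range of the other 4 libraries, 7 above and 5 below. For all 5 pairs with Ctrb1 as numerator the treated ratios lay above the rest. The ratio of Ctrc to Ctrl overlapped between treated and control libraries, with 1.51 and 1.63 in treated rats, 1.49 and 1.46 in TP rats and 1.45 and 1.65 in control rats. The pairs share genes and are not independent.

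Cela3b shifted against the other elastases in both injured groups. The ratio of Cela2a to Cela3b was 0.957 and 0.819 in TP+hucMSC-Exs rats and 0.990 and 1.06 in TP rats, against 1.29 and 1.30 in control rats. All 4 injured libraries lay below both controls. The ratio of Cela1 to Cela3b was 0.414 and 0.330 in treated rats and 0.550 and 0.661 in TP rats, against 0.689 and 0.739 in control rats. As a share of elastase TPM, Cela3b took 42.2% and 46.5% in treated rats and 39.4% and 36.8% in TP rats, against 33.5% and 32.9% in control rats. Both TP libraries were displaced in the same direction, although the members' levels were near control in replicate 1 and low in replicate 2.

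**Figure D3:**
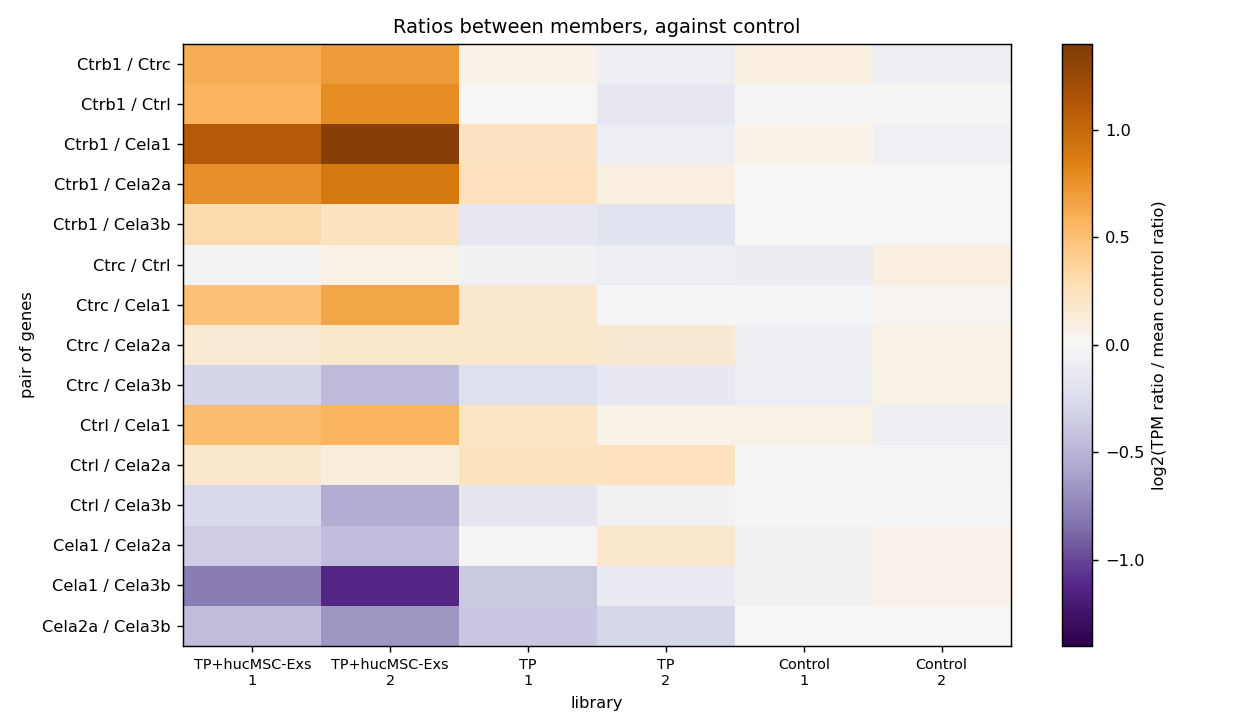
Log2 of each TPM ratio between 2 members, divided by the mean control ratio (colour), for the 15 pairs (rows) in the 6 libraries (columns); orange is above and purple below control. The 5 pairs with Ctrb1 on top are above control in both treated libraries, and the 4 pairs that divide Ctrc, Ctrl, Cela1 or Cela2a by Cela3b are below control in all 4 injured libraries.

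To compare the members with the rest of the acinar product, each gene was divided by the summed TPM of 21 other digestive enzyme genes, 8 trypsinogens and 13 others, which took 40.6% and 36.5% of TPM in TP+hucMSC-Exs rats, 50.0% and 13.7% in TP rats and 56.6% and 55.3% in control rats. Per 1000 TPM of these enzymes, Ctrb1 stood at 440 and 468 TPM in TP+hucMSC-Exs rats, against 353 and 315 TPM in TP rats and 304 and 283 TPM in control rats. The 3 groups did not overlap, and both treated libraries were highest. Cela1 stood at 27.7 and 24.7 TPM per 1000 in treated rats, against 40.6 and 45.1 in TP rats and 39.4 and 39.7 in control rats. Ctrc stood at 25.9 and 25.8 in treated rats and 30.4 and 29.5 in TP rats, against 25.7 and 26.9 in control rats, so that treated and control values overlapped. Cela3b stood at 66.9 and 75.1 in treated rats and 73.9 and 68.2 in TP rats, against 57.2 and 53.8 in control rats, so that it was higher in all 4 injured libraries. On this scale 92.1% of all genes were higher without overlap in treated than in control rats, and 34.3% in TP than in control rats. Between treated and TP rats 2.77% of all genes were higher and 1.31% lower in treated rats without overlap.

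**Figure D4:**
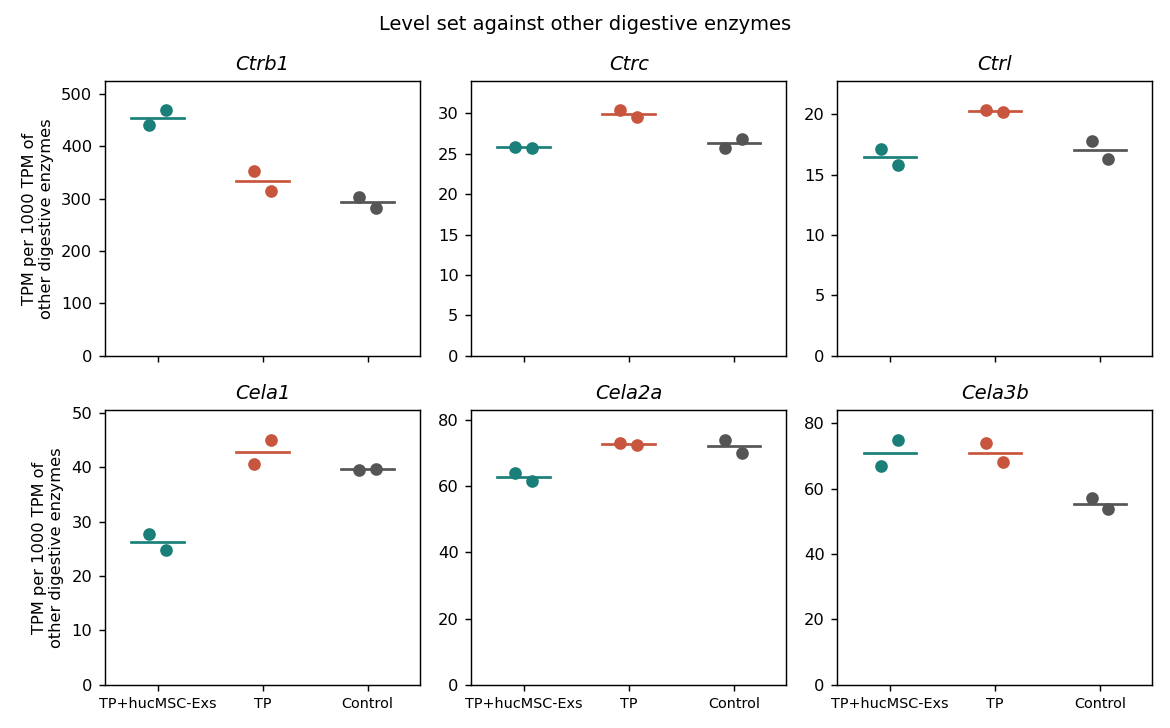
TPM of each gene per 1000 TPM of the other digestive enzymes (y axis, from 0) in the 3 groups (x axis); points are libraries and short lines are means of 2. Ctrb1 is highest in treated rats (440 and 468), Cela1 is lowest there (27.7 and 24.7), and Cela3b is higher in all 4 injured libraries than in control rats. On this scale 92.1% of all genes are higher without overlap in treated than in control rats, and 34.3% in TP than in control rats.

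Ctrb1 rose relative to the other digestive enzymes in the exosome-treated pancreas in this scaled limma fit over all 11477 genes. Against the TP group its log2 fold change was 0.45 ± 0.07 (± SE, limma adjusted p = 3.94e-06), the 1 of 6 members called, where 0.061% of all genes were called higher and 0% lower. Against control it was 0.63 ± 0.07 (adjusted p = 2.85e-15), again the 1 member called, where 0.0784% were called higher and 0% lower. Over all genes the median on this scale was -0.93 against the TP group and 1.63 against control. Against control 92.1% of all genes were higher without overlap, as were 6 of 6 zymogen granule proteins and 4 of 12 other digestive enzymes. On the TPM scale Ctrb1 lay at 0.09 against control, while the enzyme sum averaged 38.5% of TPM in treated and 55.9% in control rats. The residual SD of Ctrb1 itself was 0.087 on 3 degrees of freedom, beside 0.071 for the value shared with genes of like abundance. Few genes are as abundant as Ctrb1, so the shared value at this level rests in part on Ctrb1 itself. Prss1, of like abundance (mean 151771 TPM, beside 149543 TPM for Ctrb1), was divided by a sum that contains it. Both adjusted p-values depend on this shared value. Without the variance trend neither call was made (limma adjusted p = 0.960 and 0.807). The call against the TP group was also lost with trypsinogens alone as denominator (log2 fold change 0.13, adjusted p = 0.878), with only the 4 libraries compared (adjusted p = 0.165) and without TP+hucMSC-Exs replicate 2 (adjusted p = 0.0816).

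The duct, neutrophil, macrophage, fibroblast and endothelial lists summed higher in both treated rats than in both control rats. On the TPM scale 86.9% of all genes were higher there without overlap. The adipocyte, lymphocyte and islet sums overlapped. Duct markers summed to 286 and 402 TPM in TP+hucMSC-Exs rats, 66.8 and 582 TPM in TP rats, of which Spp1 made up 558 TPM in replicate 2, and 35.7 and 34.9 TPM in control rats. Of 7 duct markers tested 1, Cldn4, rose in the treated group against control on the TPM scale, by a log2 fold change of 5.62 ± 1.42 (± SE, limma adjusted p = 0.0397). The neutrophil list summed to 62.1 and 113 TPM in treated rats, 3.57 and 575 TPM in TP rats and 0.61 and 4.13 TPM in control rats. The part of these cell types in the relative level of Ctrb1 was not tested.

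Cela1 had relative log2 fold changes of -0.71 ± 0.25 against the TP group (adjusted p = 0.973) and -0.60 ± 0.25 against control (adjusted p = 0.754), and was called in neither. At an unadjusted p below 0.05 stood Ctrb1 and Cela1 against the TP group, as did 0.444% of all genes, and Ctrb1, Cela1 and Cela3b against control, as did 0.915%. The residual SD of Cela1 itself was 0.090, and the shared SD was 0.249. Without either TP library, which takes their difference out of the shared variance, Cela1 was called lower in both comparisons, with adjusted p between 6.68e-05 and 0.00152; against the TP group 1 TP library was then left, assumed to vary like the other groups. Cela3b lay at 0.35 ± 0.18 against control in the treated group and at 0.36 ± 0.18 in the TP group (adjusted p = 0.754 and 0.438), and at -0.00 ± 0.18 between them; both share the control libraries. Without TP replicate 1 or 2 Cela3b was called higher in treated against control pancreas (adjusted p = 0.0285 and 0.00437). Counted by libraries that did not overlap, 1 member was higher and 4 were lower in treated than in TP pancreas, against 2.77% and 1.31% of all genes. In treated against control pancreas 2 were higher and 2 lower, against 92.1% and 0.802%, and in TP against control 5 were higher, against 34.3%, and 0 lower, against 0.288%. For TP against control limma called 0 of 6 relative to other enzymes, with 2 (Ctrb1 and Cela3b) at an unadjusted p below 0.05, against 2.2% of all genes, where 0.0261% of all genes were called higher and 0.00871% lower. With trypsinogens alone as denominator Ctrb1 was called higher there (log2 fold change 0.45, adjusted p = 1.25e-06).

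**Figure D5:**
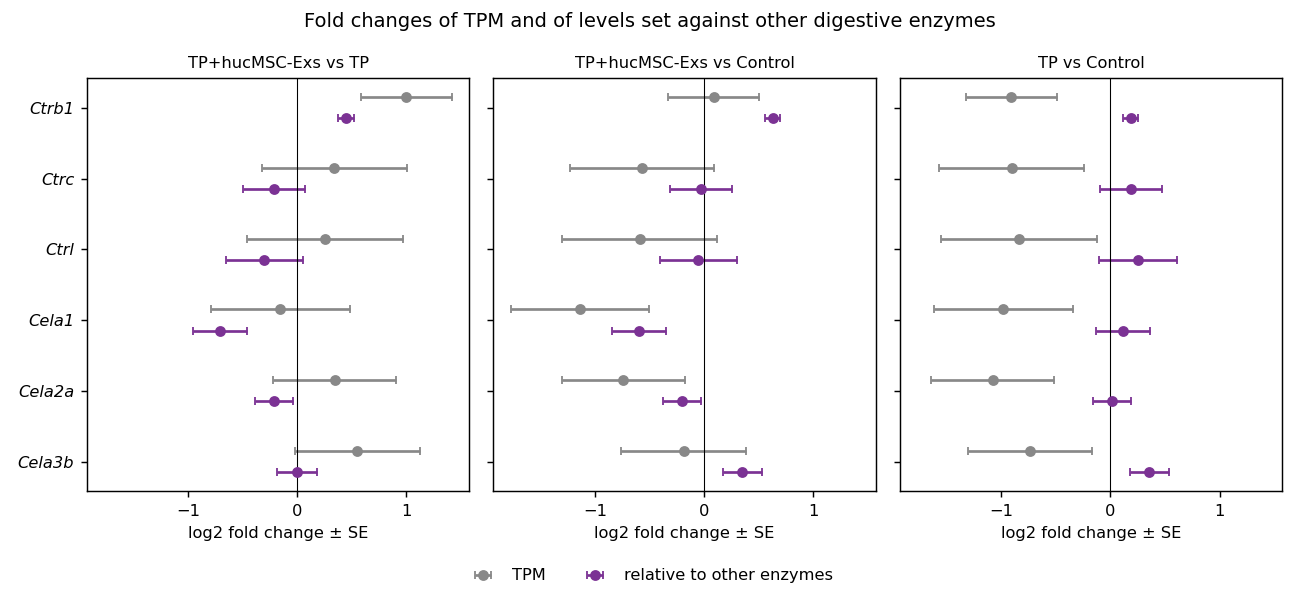
Log2 fold change with its SE (x axis) of each gene (rows) in the 3 comparisons (panels), on the TPM scale (grey) and relative to the other digestive enzymes (purple). Ctrb1 is above 0 in both treated comparisons on the relative scale (0.45 and 0.63), and Cela1 is below 0 (-0.71 and -0.60).

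Trypsinogens are the precursors of trypsin, which activates the members. Prss1, the most abundant trypsinogen, stood at 152806 and 139717 TPM in TP+hucMSC-Exs rats, against 161728 and 44279 TPM in TP rats and 209093 and 203002 TPM in control rats. The ratio of Ctrb1 to Prss1 was 1.17 and 1.22 in treated rats and 1.09 and 0.977 in TP rats, against 0.823 and 0.770 in control rats. Every injured library thus had a higher ratio than either control. Prss1 itself was lower in every injured library than in either control, while injured and control values of Ctrb1 overlapped. On the TPM scale 1.63% of all genes were lower without overlap in treated than in control rats, and 1.09% in TP than in control rats. Relative to all these enzymes, Prss3 fell in the TP group against control by 1.61 ± 0.28 on the log2 scale (± SE, limma adjusted p = 2.17e-05). Try5 and LOC286960 rose relative to them in treated against TP pancreas, 2 of 7 trypsinogens tested, with log2 fold changes of 7.01 ± 1.58 (adjusted p = 0.0167) and 3.44 ± 0.72 (adjusted p = 0.00490). Reads of near-identical trypsinogen genes can be split between copies, so these single values are uncertain.

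Of the 12 other digestive enzymes tested, 0 passed limma in any comparison on either scale. The most abundant, the amylase-like LOC103689940, had relative log2 fold changes of -0.52 ± 0.13 in treated against TP pancreas (adjusted p = 0.147) and -0.04 ± 0.13 against control (adjusted p = 0.834). Pla2g1b, pancreatic phospholipase, had relative log2 fold changes of 0.16 ± 0.16 against the TP group and 0.32 ± 0.16 against control (adjusted p = 0.973 and 0.754). The protease inhibitors made alongside the enzymes included 0 of 7 called in any comparison on either scale. Spink1, a trypsin inhibitor of the acinar cell, stood at 1184 and 1861 TPM in treated rats, against 741 and 176 TPM in TP rats and 643 and 725 TPM in control rats, and its close relative Spink1l at 2146 and 2542 TPM in treated rats, against 1871 and 465 TPM in TP rats and 1499 and 1792 TPM in control rats. For both, the treated libraries lay above all others. On the TPM scale 86.9% of all genes were higher without overlap in treated than in control pancreas, and 5.09% than in TP pancreas.

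Of the zymogen granule proteins 0 of 6 tested were called in any comparison on either scale. Sycn, syncollin, stood at 18635 and 18142 TPM in treated rats, against 17816 and 5034 TPM in TP rats and 20172 and 19155 TPM in control rats, and Zg16 at 9811 and 8810 TPM in treated rats, against 14202 and 3748 TPM in TP rats and 12006 and 10872 TPM in control rats. Acinar transcription factors, 0 of 9 called, included Xbp1, a regulator of secretory capacity, at 309 and 399 TPM in treated rats, against 134 and 185 TPM in TP rats and 141 and 159 TPM in control rats. Bhlha15, which maintains acinar granule structure, had 37.1 and 28.9 TPM in treated rats, against 36.7 and 12.3 TPM in TP rats and 29.8 and 34.7 TPM in control rats. Of 8 genes of the secretory machinery 0 were called, among them Erp27, a pancreatic chaperone, at 411 and 415 TPM in treated rats, against 455 and 113 TPM in TP rats and 347 and 336 TPM in control rats, and Vamp8, a granule fusion protein, at 57.4 and 68.8 TPM in treated rats, against 21.5 and 137 TPM in TP rats and 13.2 and 22.5 TPM in control rats.

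Leukocyte proteases, which belong to the same protease fold, were near 0 apart from mast cell genes in TP replicate 2. Elane, neutrophil elastase, stood at 0 and 0.10 TPM in treated rats, 0 and 0.38 TPM in TP rats and 0 in both controls. The mast cell genes Cma1 and Tpsab1 stood at 65.1 and 11.9 TPM in TP replicate 2, and at no more than 1.77 TPM in the other 5 libraries; 0 of the 2 leukocyte genes tested were called. F2rl1, the receptor PAR2 that trypsin cleaves, stood at 1.74 and 2.35 TPM in treated rats, against 0.20 and 1.11 TPM in TP rats and 0.04 and 0.09 TPM in control rats, and Tmprss15, the gut activator of trypsinogen, was listed at 0 in all 6.

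The genes whose pattern over the 6 libraries was most like the mean of the members were sought by the root-mean-square difference of centred log2(TPM + 0.5). Tff2, a secreted trefoil peptide, was closest, at 0.059, followed by the trypsinogen Prss3b at 0.066 and the carboxypeptidases Cpa1 at 0.106 and Cpb1 at 0.108. Further genes were Tmed6 (0.115), Zg16 (0.117) and Aqp12a (0.120), against a median of 1.78 over all genes. Tff2 stood at 1062 and 997 TPM in treated rats, against 1663 and 403 TPM in TP rats and 1492 and 1473 TPM in control rats. Of the members, Ctrc (0.041) and Ctrl (0.067) lay close to the common pattern, Cela2a (0.094) and Cela3b (0.149) further off, and Ctrb1 (0.293) and Cela1 (0.284) furthest. All these points share the same libraries, and TP replicate 2 was the lowest library for each of these 7 genes.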

How the data were processed

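RNA-seq of rat pancreas was analysed from the deposited table of gene-level TPM made by the authors, with 1 column per library. Per the labels' protocols, total RNA entered a SMARTer mRNA library kit. Which aligner and quantifier were used is not given in the sources used here. GRCm38 and mm10, both mouse builds, stand in the submitters' processing notes, but the table's gene identifiers are rat, and no coordinates were taken from it. The gene length deposited by the authors entered no test. TP columns, whose names hold an unexplained number, were matched by name and replicate number. The authors' group means were not used.

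Of 34001 genes, 11477 had a mean TPM of 1 or more over 6 libraries and were kept, among them all 6 members. Values were transformed to log2(TPM + 0.5) and fitted with limma 3.58.1 in R 4.3.3 over all 6 libraries, with a variance trend and Benjamini-Hochberg adjustment at 0.05 over all genes. This left 3 residual degrees of freedom, and, with infinite prior degrees of freedom, 1 variance was shared by genes of like abundance. A second fit divided each library by its summed TPM of trypsinogens and other digestive enzymes. TPM hold no counts, so no counting interval could be given. Only the fit on the TPM scale was tried on simulated data, with independent noise and changes larger than those of the members in that fit. The simulation has no bearing on the scaled fit. In both fits the limma p-values rest on the variance shared by genes of like abundance, taken over 3 groups of 2 rats. They do not measure each gene's own spread between rats. The members and gene lists were chosen with earlier results of these data known. From each other list, the 2 genes of highest mean and any called were named. From each cell type list the gene of highest TPM in any library was named, and from all genes the 8 most like the members' mean, of which 1 is not reported here. Ptf1a, Rbpjl, Pnlip, Cel, Prss2, Arpc2, Arrdc5, Fbxl2, Lep, Plin1 and Elane were named after their values were seen. Promoters came from RefSeq, matched by symbol, 5 of 6. Alternatives were other pseudocounts, filters, scalings, denominators, no variance trend, a fit to the compared groups alone, a block for the replicate number, and leaving out each library; Prss1 left out of the denominator was chosen after seeing the data, as were the filters, the missing trend and the compared groups alone in the scaled fit.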

Additional observations from a re-analysis of the deposited data

How the results depend on the processing

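On the TPM scale limma called 0 of 6 members in every comparison, and with only the groups compared 2 were called in TP+hucMSC-Exs against control. Leaving out 1 library gave 0 to 6 called members in TP+hucMSC-Exs against TP, 0 to 4 in TP+hucMSC-Exs against control and 0 to 6 in TP against control. Relative to other digestive enzymes the same ranges were 0 to 2, 1 to 3 and 0 to 0. With trypsinogens as the denominator 0 members were called in TP+hucMSC-Exs against TP and 1 in TP against control. Without the variance trend 0 were called in both treated comparisons, and with only the groups compared 0 against TP and 3 against control (Ctrb1, Cela1 and Cela3b). The log2 elastase to chymotrypsin ratio taken as a mean over members was -0.28 against TP and -0.33 against control; leaving out a library gave -0.66 to -0.53 and -0.65 to -0.60, and -0.09 to 0.04 for TP against control.

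The relative log2 fold changes of Ctrb1 that were called kept their sign under every alternative run. Values that changed sign, on the TPM scale, were with median-of-ratios scaling Cela1 at 0.13 in TP+hucMSC-Exs against TP and Ctrb1 at -1.36 against control, and with quantile normalization Cela2a at -0.38 against TP, Cela3b at 0.13 in TP+hucMSC-Exs against control, and Ctrb1 at 0.12 and Cela3b at 0.062 in TP against control. Relative to the 13 other enzymes without trypsinogens, TP against control gave -0.025 for Ctrb1, -0.022 for Ctrc, -0.097 for Cela1 and -0.19 for Cela2a. TP+hucMSC-Exs against TP gave 0.047 for Ctrc, 0.049 for Cela2a and 0.26 for Cela3b, and TP+hucMSC-Exs against control 0.026 for Ctrc and 0.0029 for Ctrl. With Prss1 left out of the denominator Cela2a lay at -0.086 in TP against control and Cela3b at 0.12 in TP+hucMSC-Exs against TP. Leaving out 1 library moved log2 fold changes across 0 as follows. In TP+hucMSC-Exs against TP, on the TPM scale, Cela1 ran between -1.01 and 0.70, Ctrb1 ran between -0.014 and 2.01, Ctrc ran between -0.61 and 1.29, Ctrl ran between -0.68 and 1.18, Cela2a ran between -0.60 and 1.28 and Cela3b ran between -0.44 and 1.54. In TP against control, on the TPM scale, Ctrb1 ran between -1.92 and 0.10, Ctrc ran between -1.86 and 0.045, Ctrl ran between -1.77 and 0.094 and Cela3b ran between -1.73 and 0.25. In TP+hucMSC-Exs against TP, relative to other enzymes, Cela3b ran between -0.086 and 0.081. In TP+hucMSC-Exs against control, relative to other enzymes, Ctrl ran between -0.11 and 0.014 and Ctrc ran between -0.058 and 0.0040. In TP against control, relative to other enzymes, Cela2a ran between -0.027 and 0.056.

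Replicate numbers are shared between groups, but nothing in the labels ties same-numbered rats, and the correlations of their deviations were 0.135 (TP+hucMSC-Exs and TP), 0.080 (TP+hucMSC-Exs and control) and 0.279 (TP and control). With the replicate number as a block 22 genes were called in TP+hucMSC-Exs against TP, 35 in TP+hucMSC-Exs against control and 10 in TP against control on the TPM scale, against 8, 24 and 6 without it, and the block changed no call of a member. The log2 fold changes of Ctrb1 under the block were 0.45, 0.63 and 0.18 in the same order, relative to other digestive enzymes. The cause of these differences was not tested. Depth is unknown in TPM, and 2 rats a group limit every comparison.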
